A study of Mus musculus with 5 samples.

Results

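The contractile unit of striated muscle is the sarcomere, and 40 genes that encode its filaments, its Z-disc and its assembly factors were examined in 3 ChIP-seq peak lists. A peak was counted for a gene when the deposited list carried that gene's name beside the position. The 40 genes, out of 21924 protein-coding gene names of the mouse annotation, had 132 of the 89451 peaks in the 3 lists. They comprised 15 thin filament genes, 9 thick filament genes, 12 genes of the Z-disc and its partners, and 4 genes of the M-line, titin and assembly.

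In a sarcomere, thick filaments of myosin slide along thin filaments of actin, and the troponin complex and tropomyosin on the thin filament make this depend on calcium. Thin filaments are anchored and crosslinked at the Z-disc, thick filaments at the M-line, and titin spans from one to the other. Cardiac and skeletal muscle use different genes for many of these parts, and early heart cells switch on the cardiac set together with some embryonic and skeletal isoforms.

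The cells were CP (cardiac progenitors), differentiated from the 46C line of mouse embryonic stem cells. In total 3 immunoprecipitations were compared: ZHX1 in 46C-Ctrl, hnRNPA1 in 46C-Ctrl, and hnRNPA1 in Zhx1-KO. The 46C-Ctrl cells are the control, and the Zhx1-KO line was made from wild-type 46C cells with CRISPR guides at both ends of Zhx1, which encodes a zinc finger and homeobox protein. hnRNPA1 is an RNA-binding protein known for its part in splicing. Each group had 1 library, so no difference between groups could be tested and every comparison below is a description. Whether the knockout line was 1 clone is not given in the sources used here. The 2 input samples were not analysed here. The lists held 23244 peaks for ZHX1, 14662 for control hnRNPA1 and 51545 for Zhx1-KO hnRNPA1, the last 3.52 times the control hnRNPA1 list. They give positions and names without reads or scores, so read depth at each position is unknown. With depth unknown and 1 library a group, the absence of a peak does not show absent binding, and peak positions cannot check the labelled cell type. Intervals are 95% intervals (exact Poisson for counts, Wilson for shares, exact binomial for ratios of 2 counts) and cover counting error only. Zhx1 itself was named by 1 ZHX1 peak, 0 control hnRNPA1 peaks and 1 Zhx1-KO peak and held 1, 0 and 0 peaks in its body, which does not check the knockout. Hnrnpa1 held 0, 0 and 1 peaks in its body.

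At 3 places a ZHX1 peak and a control hnRNPA1 peak named for a sarcomere gene overlapped, and the sequences under them differ in kind. Capitals mark the bases common to the overlapping peaks, and all sequences are from GRCm38, plus strand, with gene positions from GENCODE M21. The position in an intron of Nebl (control hnRNPA1 peak at chr2:17651879-17652156) was the only one found in all 3 lists. The position named for Ttn (ZHX1 at chr2:77052975-77053254, control hnRNPA1 at chr2:77053246-77053468) lies in an intron of the neighbouring gene Ccdc141, and the peaks share only 9 bases. The position named for Myom2 (control hnRNPA1 at chr8:15519819-15520068) is intergenic, 401 kb downstream of the nearest start of that gene.
Nebl, control hnRNPA1: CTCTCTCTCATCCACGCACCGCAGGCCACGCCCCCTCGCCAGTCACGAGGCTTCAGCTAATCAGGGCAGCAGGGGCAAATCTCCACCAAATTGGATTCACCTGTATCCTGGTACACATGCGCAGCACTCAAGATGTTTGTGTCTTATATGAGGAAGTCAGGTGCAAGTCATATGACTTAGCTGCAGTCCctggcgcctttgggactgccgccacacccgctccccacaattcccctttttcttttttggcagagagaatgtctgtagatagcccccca
Ttn, control hnRNPA1: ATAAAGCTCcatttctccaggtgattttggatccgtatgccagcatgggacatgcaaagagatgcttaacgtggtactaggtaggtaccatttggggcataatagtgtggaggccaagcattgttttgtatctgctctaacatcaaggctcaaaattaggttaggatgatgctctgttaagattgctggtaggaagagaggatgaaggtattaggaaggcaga
Ttn, ZHX1: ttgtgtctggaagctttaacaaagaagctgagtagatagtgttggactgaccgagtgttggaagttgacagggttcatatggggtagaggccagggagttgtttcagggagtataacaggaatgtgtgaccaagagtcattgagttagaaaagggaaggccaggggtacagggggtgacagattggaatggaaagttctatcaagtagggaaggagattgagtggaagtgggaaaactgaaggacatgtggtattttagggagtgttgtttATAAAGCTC
Myom2, control hnRNPA1: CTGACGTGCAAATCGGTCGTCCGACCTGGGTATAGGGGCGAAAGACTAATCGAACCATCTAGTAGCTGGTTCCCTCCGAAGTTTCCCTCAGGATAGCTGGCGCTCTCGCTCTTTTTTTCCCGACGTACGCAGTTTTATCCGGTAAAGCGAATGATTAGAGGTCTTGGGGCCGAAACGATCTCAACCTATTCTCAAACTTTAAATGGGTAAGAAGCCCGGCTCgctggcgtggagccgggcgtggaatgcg

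These sequences recur in the genome to very different degrees. As a measure of copy number, the occurrences of each 32-base word of a peak were counted in GRCm38 and the median taken, with a median of 2 or more called multi-copy. The Nebl position had a median of 558 copies under the ZHX1 peak, 628 under the control hnRNPA1 peak and 417 under the Zhx1-KO peak. Its bases were masked as repeats over 100% of each of the 3 peaks. At the Myom2 position the median was 11 in both lists. The Ttn position was single-copy in both lists. Reads without a unique position were removed before the peaks were made, and the part this plays at the Nebl and Myom2 positions was not tested.

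Peaks that contained a CArG box, the binding motif of SRF (the serum response factor, a known activator of muscle genes), stood at 4 sarcomere genes. The motif was searched on both strands by its name as CC, then 6 bases of A or T, then GG, and it is in capitals below. At Actn2, which encodes the Z-disc crosslinker α-actinin 2, it was in a control hnRNPA1 peak in an intron (chr13:12283999-12284298). At Smyd1, which encodes a muscle-specific methyltransferase of sarcomere assembly, it was in a control hnRNPA1 peak in an intron (chr6:71225618-71225853). At the α-actin genes it was in Zhx1-KO hnRNPA1 peaks: for Actc1, the cardiac α-actin, 9.25 kb downstream of a start site (chr2:114043425-114043554 is shown), and for Acta1, the skeletal α-actin, over the start of the gene (chr8:123894779-123894908 is shown).
Actn2, control hnRNPA1: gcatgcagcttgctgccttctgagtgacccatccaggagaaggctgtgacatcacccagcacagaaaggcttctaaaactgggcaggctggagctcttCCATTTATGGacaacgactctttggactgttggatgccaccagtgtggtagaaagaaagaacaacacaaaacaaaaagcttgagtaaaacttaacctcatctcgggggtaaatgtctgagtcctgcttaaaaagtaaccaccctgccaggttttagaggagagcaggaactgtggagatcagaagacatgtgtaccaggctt
Smyd1, control hnRNPA1: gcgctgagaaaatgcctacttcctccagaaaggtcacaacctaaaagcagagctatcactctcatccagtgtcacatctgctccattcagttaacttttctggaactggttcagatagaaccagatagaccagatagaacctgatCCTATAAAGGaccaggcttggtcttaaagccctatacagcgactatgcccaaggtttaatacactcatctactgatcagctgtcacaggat
Actc1, Zhx1-KO hnRNPA1: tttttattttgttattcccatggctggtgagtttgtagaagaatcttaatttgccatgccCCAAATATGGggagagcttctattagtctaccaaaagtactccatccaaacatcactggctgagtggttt
Acta1, Zhx1-KO hnRNPA1: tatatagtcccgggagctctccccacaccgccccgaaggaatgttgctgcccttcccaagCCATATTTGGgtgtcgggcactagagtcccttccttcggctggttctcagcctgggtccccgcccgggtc

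The Actn2 and Smyd1 peaks carry the names of other genes in the deposited list, Mtr and Fabp1, so the shares by name that follow leave them out. For the wider set of peaks named for, inside or within 2 kb of a start of a sarcomere gene, no share is given here. The peaks shown above are therefore not read as an excess of the motif. Among peaks named for a sarcomere gene, a CArG box was present in 0 of 32 ZHX1 peaks, 0 of 29 control hnRNPA1 peaks and 2 of 71 Zhx1-KO peaks (2.82%, 0.776 to 9.7%), with 1.68%, 1.73% and 1.58% over all peaks of each list named for a coding gene. The motif was also counted in the sarcomere promoters themselves. In the RefSeq promoter table for GRCm38 (250 bases before to 50 after a start), 33 of the 40 genes had an entry, and 8 of their 45 promoters held a CArG box (17.8%), against 1.63% of all 32851 promoters. Other motifs were counted in the same promoters. TAGGG was in 48.9% (36.3% of all promoters), CCAAT in 40% (37.4%) and the E-box CANNTG in 82.2% (72.3%). Repeated runs of G with short loops were in 26.7% (18.6%). The 8 promoters with a CArG box belonged to Acta1, Actc1, Ldb3, Myl3, Myl7, Myom1 and Nebl. Of these genes, Acta1, Ldb3, Myl3, Myom1 and Nebl also had at least 1 peak in the body or within 2 kb of a start in some list. Actc1 and Myl7 had none. Of all 40 genes, 33 (82.5%) had a body peak in some list, and that share over all coding genes is not given here. The peaks at the CArG genes are therefore not read as a mark of them. Myl3 counted only through a GENCODE start at 110741861, outside its RefSeq span (110763678 to 110769802). A match of letters is not a bound site.

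By name, the sarcomere genes were hit about as often as other genes. ZHX1 peaks were named for 16 of the 40 genes (40%, 26.3 to 55.4%), against 40.5% of all coding genes. Control hnRNPA1 peaks were likewise named for 16 of 40 (40%), where 31.2% of all coding genes had one. Zhx1-KO peaks were named for 24 of 40 (60%, 44.6 to 73.7%), against 57.7%. The sarcomere genes took 32 ZHX1 peaks (21.9 to 45.2), 29 control hnRNPA1 peaks (19.4 to 41.6) and 71 Zhx1-KO peaks (55.5 to 89.6). This was 0.138%, 0.198% and 0.138% of the peaks in each list. From control to Zhx1-KO hnRNPA1 the number for the sarcomere genes was 2.45 times as high (1.57 to 3.91), and the whole list was 3.52 times as long. Without Nebl, which was singled out after its counts were seen, the ratio for the remaining genes was 1.96 (49 and 25 peaks, 1.19 to 3.31). With every list held to its 14662 widest peaks, the order for the 40 genes was reversed, at 17 Zhx1-KO peaks and 29 control hnRNPA1 peaks.

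**Figure D1:**
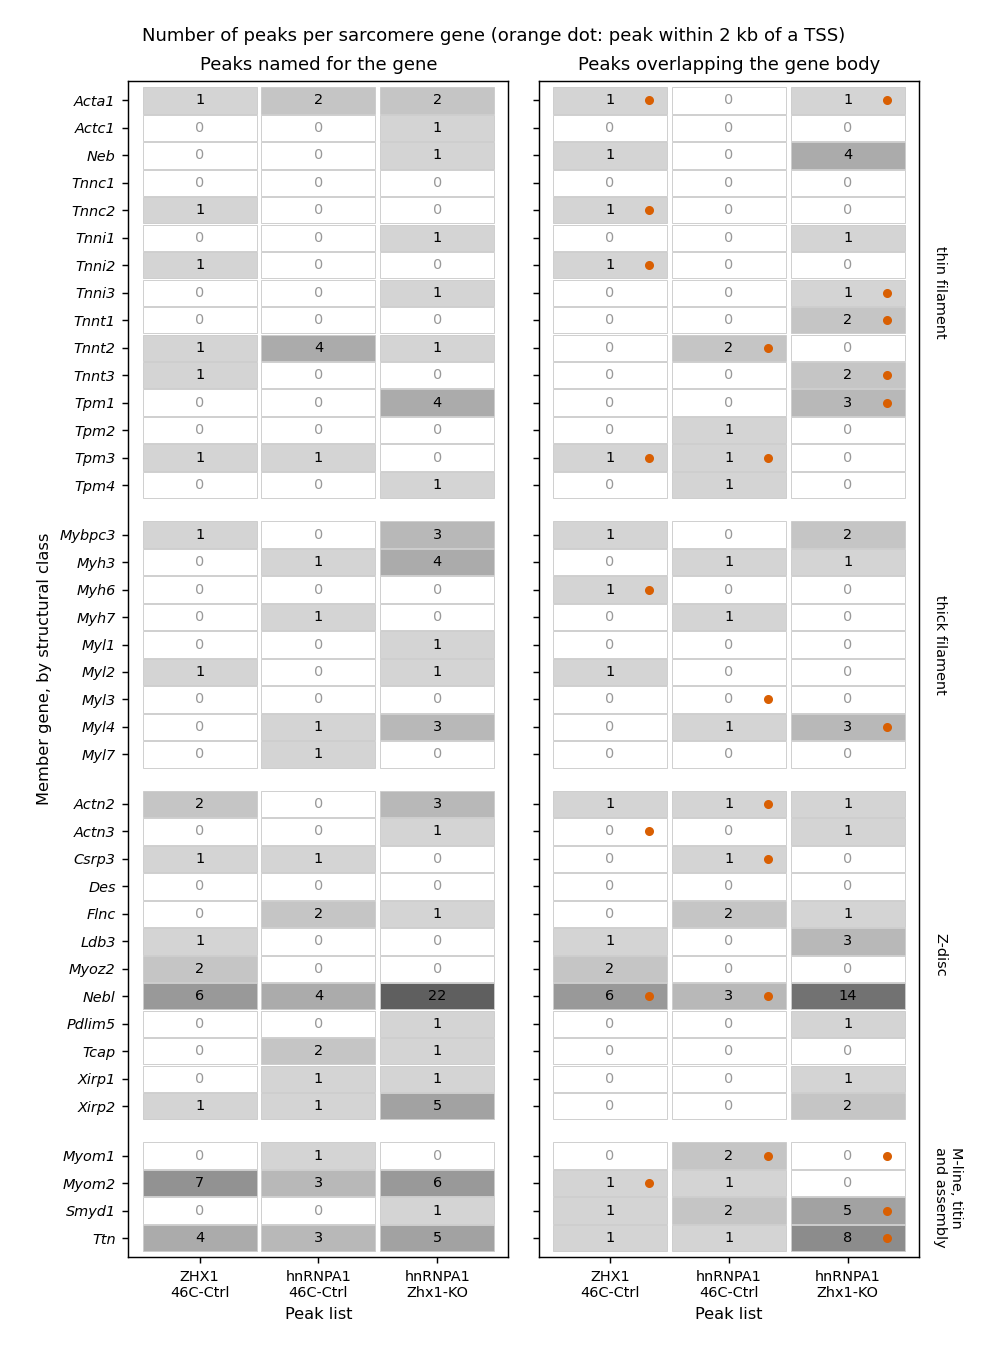
Number of peaks per sarcomere gene in the 3 lists, by deposited name (left) and by overlap with the annotated gene body (right); darker cells hold more peaks and an orange dot marks a peak within 2 kb of an annotated TSS. Nebl has 6, 4 and 22 named peaks, most genes have 0 or 1, and Ttn, Neb, Ldb3 and Smyd1 have more Zhx1-KO peaks in the gene body than by name.

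A few genes held much of the total. Nebl, Myom2 and Ttn together took 60 of the 132 named peaks (45.5%). In the ZHX1 list Myom2, Nebl and Ttn led with 7, 6 and 4 peaks. In control hnRNPA1 Nebl and Tnnt2 had 4 each and Myom2 and Ttn 3 each. In Zhx1-KO Nebl had 22, Myom2 6, and Ttn and Xirp2 5 each. The other genes mostly had 1 peak per list, with 11 of 16 named genes at 1 peak for ZHX1, 9 of 16 for control hnRNPA1 and 14 of 24 for Zhx1-KO. Genes without a named peak in any list were Des (desmin), Myh6 (cardiac α-myosin), Myl3 (ventricular essential light chain), Tnnc1 (cardiac troponin C), Tnnt1 (slow skeletal troponin T) and Tpm2 (β-tropomyosin). How many of all coding genes lacked one is not given here.

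The study compared ZHX1 and hnRNPA1 in control cells by gene name and asked which shared genes lost hnRNPA1 without Zhx1. Both control lists named 8 sarcomere genes (20%, 10.5 to 34.8%): Acta1, Csrp3, Myom2, Nebl, Tnnt2, Tpm3, Ttn and Xirp2. Among all coding genes the share named in both was also 20%. Of the 8 genes, 6 were named in the Zhx1-KO list as well (15% of 40, against 17.9% of all coding genes). The 2 without a Zhx1-KO name were Csrp3 and Tpm3 (5%, against 2.07%). Only the Zhx1-KO list named 10 genes (25%, against 18%), which were Actc1, Actn3, Myl1, Neb, Pdlim5, Smyd1, Tnni1, Tnni3, Tpm1 and Tpm4. Only ZHX1 peaks were named for Ldb3, Myoz2, Tnnc2, Tnni2 and Tnnt3, and only control hnRNPA1 peaks for Myh7, Myl7 and Myom1. For these last 2 groups the share over all coding genes is not given here. The background shares given for the other groups each lay within the interval of the 40 genes.

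A name does not always give the place. Of the 132 named peaks, 66 overlapped the body of the gene they were named for. By list this was 53.1% for ZHX1, 44.8% for control hnRNPA1 and 50.7% for Zhx1-KO (39.3 to 62%). Over all peaks named for a coding gene the shares were lower, at 38%, 36.9% and 36.4%. Only the Zhx1-KO interval lay above its background. Conversely, 99 peaks overlapped a sarcomere gene body (21 ZHX1, 21 control hnRNPA1 and 57 Zhx1-KO). Of these, 33 carried another gene's name (4, 8 and 21), and the same share over all coding genes is not given here. The deposited name was that of the nearest curated RefSeq start site for 130 of the 132 peaks (98.5%), and for 91.1% of all peaks. Counted by body, 15, 15 and 20 of the 40 genes had a peak, which is 37.5%, 37.5% and 50%. Over all coding genes the shares with a peak in the body were 28.1% for ZHX1, 20.5% for control hnRNPA1 and 42.3% for Zhx1-KO. The control hnRNPA1 interval of the sarcomere genes (24.2 to 53%) lay above its background, while the same interval for ZHX1 held 28.1% and the Zhx1-KO interval (35.2 to 64.8%) held 42.3%. The median length was 22.5 kb for the sarcomere genes and 17.4 kb for all coding genes. Per Mb of gene body, control hnRNPA1 had 10.1 peaks at the sarcomere genes (6.25 to 15.4) and 6.4 over all coding genes, a level inside that interval. No peak of any list overlapped the bodies of Actc1, Des, Myl1, Myl3, Myl7, Tcap and Tnnc1, and the share of all coding genes without a body peak is not given here.

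**Figure D2:**
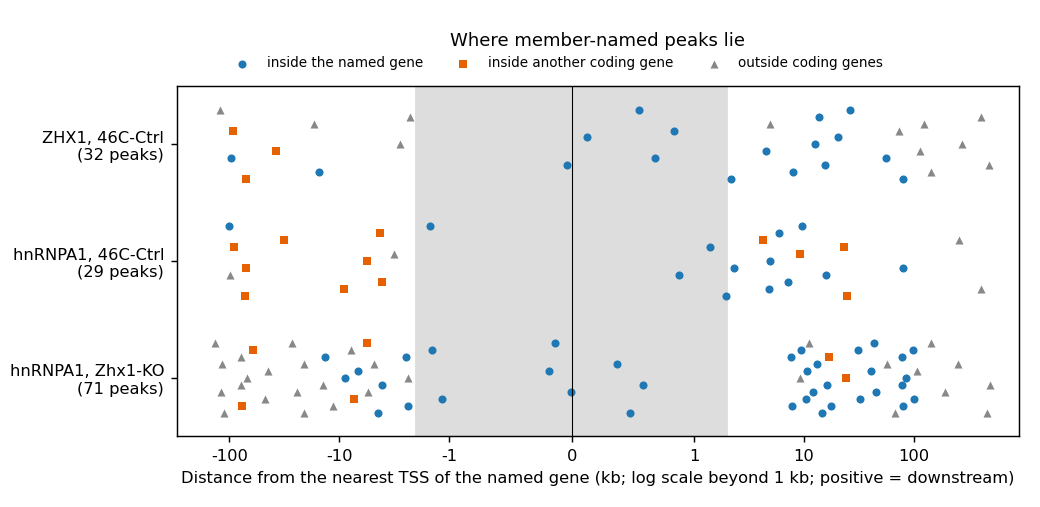
Distance of each sarcomere-named peak from the nearest annotated TSS of that gene (kb, log scale beyond 1 kb, grey band 2 kb to either side), for 32 ZHX1, 29 control hnRNPA1 and 71 Zhx1-KO peaks; the vertical scatter within a list carries no meaning. Orange squares, peaks inside another coding gene, number 3, 12 and 6.

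Control hnRNPA1 peaks with sarcomere names often lay inside another coding gene. This was so for 12 of 29 (41.4%, 25.5 to 59.3%), against 12.6% of all control hnRNPA1 peaks named for a coding gene. In the ZHX1 list it was 3 of 32 (9.38%) and in Zhx1-KO 6 of 71 (8.45%), with 11% over all coding names in each. Among the 12 were peaks in Ccdc141 (3, named Ttn), Pkp1 (2, named Tnnt2), Stard3 (2, named Tcap), the predicted gene Gm20388 (2, named Acta1), Cx3cr1 (1, named Xirp1) and the predicted gene Gm21830 (1, named Xirp2). The annotations of Gm20388 and Cx3cr1 overlap Acta1 and Xirp1 themselves. Several of the 12 share a gene, while the interval treats every peak as separate. Control hnRNPA1 peaks were also the closest to a start, at a median of 9.07 kb, with 18.7 kb for ZHX1 and 17.6 kb for Zhx1-KO. Over all coding names the medians were 24.7, 25.1 and 27.9 kb.

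The thin filament begins with actin and tropomyosin. Acta1 (chromosome 8, 123891769 to 123894751) had a ZHX1 peak over coding sequence at 123892418 to 123892776 and a Zhx1-KO peak across its start at 123894737 to 123895139. Both lists thus had a promoter peak, defined here as one within 2 kb of any annotated start site (TSS). The ZHX1 peak counted only by its edge, with its centre 2.15 kb downstream of the start. Its 2 control hnRNPA1 peaks lay beyond the 3′ end at 123890390 to 123890612 and 123885381 to 123885783. A further Zhx1-KO peak named Acta1 lay at 123877610 to 123877851 in Gm20388. No 2 of these peaks overlapped, and the nearest ZHX1 and control hnRNPA1 peaks were 1806 bp apart. Actc1 had only the downstream Zhx1-KO peak shown above. Tpm1, which encodes the main striated muscle tropomyosin of the heart, had 4 Zhx1-KO peaks and none in either control list. The widest of them (chromosome 9, 67043499 to 67043974, 476 bp) sat over an internal start, and 67045254 to 67045547 was 1.44 kb upstream of one. Tpm3 (chromosome 3, 90072649 to 90100902), a slow muscle and cytoskeletal tropomyosin gene, was one of the 2 sarcomere genes with a promoter peak in both control lists. Its control hnRNPA1 peak at 90073776 to 90074332 was 1.4 kb downstream of a start and its ZHX1 peak at 90088497 to 90088724 was 0.549 kb from another start, 14165 bp further on. Tpm3 had no Zhx1-KO peak by name or body. Tpm2 had 1 control hnRNPA1 peak over a UTR, 4.6 kb downstream of a start and named Arhgef39. Tpm4 had an intronic control hnRNPA1 peak named Rab8a and an intergenic Zhx1-KO peak 11.5 kb upstream. Neb, the giant skeletal thin filament ruler nebulin, had 1 ZHX1 and 4 Zhx1-KO peaks in its 241.8 kb, all intronic, of which only 1 carried its name.

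The troponin genes lie in tandem pairs, one troponin T beside one troponin I. Tnnt2, cardiac troponin T (chromosome 1, 135836354 to 135852260), had 4 control hnRNPA1 peaks by name, 2 of them in the gene. The peak at 135847847 to 135848069 was 1.49 kb upstream of an internal start and so a promoter peak, and the other at 135842987 to 135843344 overlapped a non-coding exon. The other 2, at 135872227 to 135872449 and 135873977 to 135874215, lay in Pkp1. The ZHX1 peak named Tnnt2 (135854231 to 135854534) was outside the gene and multi-copy with a median of 12, and the Zhx1-KO peak (135830556 to 135830830) was in Lad1. None of these overlapped another list. The partner Tnni1, slow skeletal and fetal heart troponin I (135779434 to 135810989), had 1 intronic Zhx1-KO peak at 135790665 to 135790974 and no other.

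In the second pair, Tnni3, cardiac troponin I (chromosome 7, 4518305 to 4524229), had 1 Zhx1-KO peak at 4519144 to 4519437, 0.474 kb from a start. Its neighbour Tnnt1, slow skeletal troponin T (4504570 to 4516382), had Zhx1-KO peaks at 4505849 to 4506072 and 4506901 to 4507124, both named Ppp1r12c and both within 2 kb of a start, the former only by its edge. The latter peak was multi-copy, with a median of 4. Neither gene had a control peak of either protein. In the third pair, also on chromosome 7, Tnnt3, fast skeletal troponin T (142498836 to 142516009), had 2 intronic Zhx1-KO peaks named Prr33, with the one at 142514888 to 142515176 near a start. A ZHX1 peak at 142496386 to 142496748 lay 2.27 kb upstream. Tnni2, fast skeletal troponin I (142441808 to 142444410), had 1 ZHX1 peak over an internal start at 142443022 to 142443249. Tnnc2, fast skeletal troponin C (chromosome 2, 164777161 to 164779967), likewise had only a ZHX1 promoter peak, at 164778794 to 164779021. Tnnc1, cardiac troponin C, had no peak in any list.

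On the thick filament, the cardiac myosin heavy chains stand side by side on chromosome 14. Myh6 (54941921 to 54966927) had 1 ZHX1 peak, at 54942443 to 54942715 near the 3′ end, within 2 kb of an annotated internal start and named Cmtm5. It had no hnRNPA1 peak. Myh7, the cardiac β-myosin (54970684 to 54994626), had 2 control hnRNPA1 peaks. One was 3.22 kb upstream at 54997739 to 54997962. The other, at chr14:54979195-54979421, covered a coding exon, was named Mir208b and had a median copy number of 2. Its other copy is in Myh6: 117 of its 196 32-base words (59.7%) occur there too, between 54950286 and 54950497. Capitals mark the 210 bases of the peak that lie in a word found again within 1 Mb.
Myh7, control hnRNPA1: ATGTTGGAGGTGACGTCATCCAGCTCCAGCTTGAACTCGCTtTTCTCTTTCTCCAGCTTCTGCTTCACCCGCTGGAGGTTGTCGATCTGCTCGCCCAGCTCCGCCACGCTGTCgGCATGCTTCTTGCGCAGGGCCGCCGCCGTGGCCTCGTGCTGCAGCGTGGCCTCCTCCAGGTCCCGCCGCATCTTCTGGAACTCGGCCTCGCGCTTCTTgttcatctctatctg

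Myosin light chain genes had few peaks. Myl2, the ventricular regulatory light chain, had an intronic ZHX1 peak (chromosome 5, 122111731 to 122111958) and a Zhx1-KO peak 14 kb upstream. Myl4, the atrial and fetal light chain (chromosome 11, 104550663 to 104595753), had 3 Zhx1-KO peaks, of which 104583676 to 104583899 and 104585419 to 104585675 were within 2 kb of a start. Its control hnRNPA1 peak lay at 104589799 to 104590022, 4124 bp from the nearest of them. Myl3 had a control hnRNPA1 promoter peak, named Pth1r and lying in Pth1r (chromosome 9, 110739652 to 110739992), 2.04 kb upstream of a distant start by its centre. In RefSeq, Myl3 spans 6.125 kb rather than 27.94 kb and starts further downstream. Myl1 had a multi-copy Zhx1-KO peak 20.9 kb upstream with a median of 1553 copies. Myh3, the embryonic myosin heavy chain, had 4 Zhx1-KO peaks, 3 of them upstream between 4.83 and 7.87 kb from the start. Inside Myh3, hnRNPA1 peaks of the control (chromosome 11, 67087847 to 67088069) and of Zhx1-KO (67088820 to 67089100) were 751 bp apart. Mybpc3, cardiac myosin-binding protein C (chromosome 2, 91118144 to 91136516), had a Zhx1-KO peak at 91130118 to 91130358 and a ZHX1 peak at 91130520 to 91130799 in the same part of the gene, 162 bp apart without overlap. Another Zhx1-KO peak covered a coding exon at 91134338 to 91134561, and the one left, named Mybpc3, lay in Madd.

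At the Z-disc, Nebl had the most peaks in each list. Nebl encodes nebulette, the cardiac relative of nebulin, and is the longest of the 40 genes (chromosome 2, 17343909 to 17731464, 387.6 kb). It had 6 ZHX1, 4 control hnRNPA1 and 22 Zhx1-KO peaks by name, and 6, 3 and 14 in its body. Per Mb of the gene this is 15.5, 10.3 and 56.8 named peaks, where all coding genes had 17, 10.8 and 37.7. Nebl was the other gene with a promoter peak in both control lists. The ZHX1 peak at 17730233 to 17730490 was 0.682 kb downstream of the nearest start and lay 0.974 to 1.231 kb inside the outermost one. The control hnRNPA1 peak at 17526274 to 17526496 was 1.94 kb from an internal start, far into the gene. No Zhx1-KO peak was within 2 kb of a start. Around the shared repeat position, Zhx1-KO had another multi-copy peak at 17652701 to 17652971 (median 160.5), and 545 bp separated it from the control hnRNPA1 peak. In single-copy sequence, neighbouring peaks of the 3 lists stood at 17626815 to 17627275 (ZHX1), 17629918 to 17630140 (control hnRNPA1) and 17632218 to 17632441 (Zhx1-KO), 2643 and 2078 bp from each other.

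**Figure D3:**
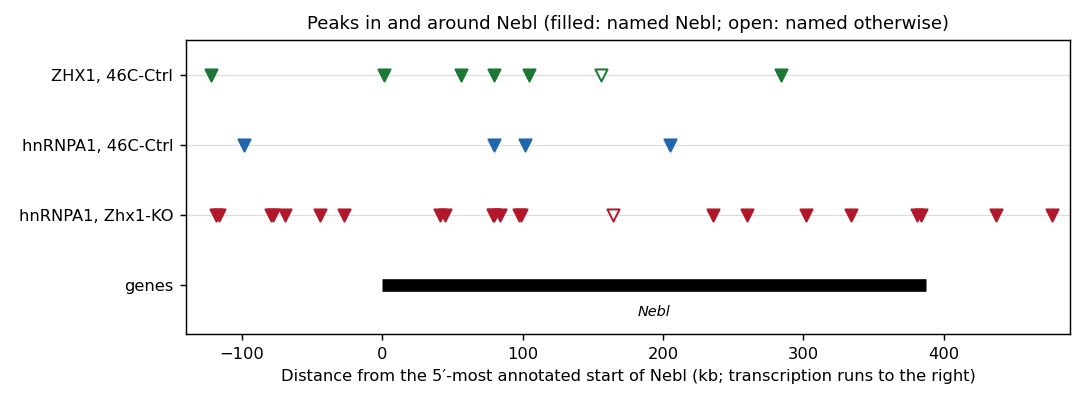
Peaks in and around Nebl by distance from its outermost start (kb), 1 row per list the gene drawn in black, with filled triangles for peaks named Nebl and open ones for other names. Of 22 named Zhx1-KO peaks 9 lie outside the gene, and the only position in all 3 lists is near 79.4 kb.

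The other Z-disc genes had their peaks apart from each other. Actn2 (chromosome 13, 12269426 to 12340760) had a ZHX1 peak in an intron at 12314248 to 12314598 and one 16.9 kb upstream, and 3 Zhx1-KO peaks, of which 12323037 to 12323260 was intronic. Its control hnRNPA1 peak with the CArG box was 1.6 kb upstream of an internal start and counted as a promoter peak. Csrp3, which encodes the muscle LIM protein (chromosome 7, 48830398 to 48848033), had a control hnRNPA1 promoter peak in an intron at 48847045 to 48847267, 0.877 kb downstream of a start. Its ZHX1 peak was intergenic at 48850688 to 48851035, 2.83 kb upstream and 3421 bp from the hnRNPA1 peak, and the nearest Zhx1-KO peak to the hnRNPA1 peak was 62075 bp away. Tcap (telethonin), 1.143 kb long, had all 3 of its peaks in Stard3, 4.32 to 9.07 kb upstream. Flnc (filamin C) had 2 control hnRNPA1 peaks in the gene, at 29438980 to 29439314 in an intron and 29440321 to 29440546 over a coding exon of chromosome 6. A Zhx1-KO peak over another coding exon was named Atp6v1f, and 1 named Flnc was 2.36 kb upstream. Ldb3 (cypher) had an intronic ZHX1 peak (chromosome 14, 34583829 to 34584212) and 3 intronic Zhx1-KO peaks, the latter all named 9230112D13Rik. Myoz2 (calsarcin 1) had 2 intronic ZHX1 peaks, 1 of them multi-copy with a median of 157, and nothing else. Actn3, the fast skeletal α-actinin, had a ZHX1 peak 1.9 kb upstream named Zdhhc24 (chromosome 19, 4879697 to 4879924) and a Zhx1-KO peak over a coding exon at 4867816 to 4868163. Pdlim5 had 1 intronic Zhx1-KO peak in 156.1 kb. Xirp1 and Xirp2, actin-binding genes of the intercalated disc, had 2 and 7 named peaks. Of the 7 at Xirp2 2 were in the gene, both Zhx1-KO, and the ZHX1 and control hnRNPA1 ones were multi-copy (medians 111 and 1518.5).

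Titin and the M-line genes had the least regular naming. Ttn (chromosome 2, 76703980 to 76982547) was named by 4, 3 and 5 peaks, but 8 of these 12 lay upstream in Ccdc141: 3 ZHX1, 3 control hnRNPA1 and 2 Zhx1-KO. In the gene body there were 1, 1 and 8 peaks. Of the 8 Zhx1-KO peaks 6 covered coding exons, and 5 of the 8 were named Plekha3 after the gene beyond the 3′ end. The ZHX1 peak in the body, at 76953680 to 76954072, was intronic. The control hnRNPA1 peak in the body (chr2:76795649-76795871, named Plekha3) also covered a coding exon, and its sequence is shown with coding bases in capitals. Ttn runs on the minus strand, so its mRNA reads as the reverse complement.
Ttn coding exon, control hnRNPA1: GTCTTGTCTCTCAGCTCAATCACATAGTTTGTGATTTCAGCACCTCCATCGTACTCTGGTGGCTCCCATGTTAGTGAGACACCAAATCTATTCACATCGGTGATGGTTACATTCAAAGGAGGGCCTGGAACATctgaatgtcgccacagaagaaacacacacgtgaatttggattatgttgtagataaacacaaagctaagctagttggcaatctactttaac

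The nearest Zhx1-KO peak to this exon was 3286 bp away, at 76799157 to 76799537. A further Zhx1-KO peak in Ttn, at 76832280 to 76832582, counted as a promoter peak through an internal start 0.135 kb away. The Zhx1-KO peak at 76870085 to 76870404 was likewise 0.367 kb from an internal start. The former lies in sequence that Ttn holds more than once: 246 of its 272 words (90.4%) recur between 76828498 and 76828799.

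**Figure D4:**
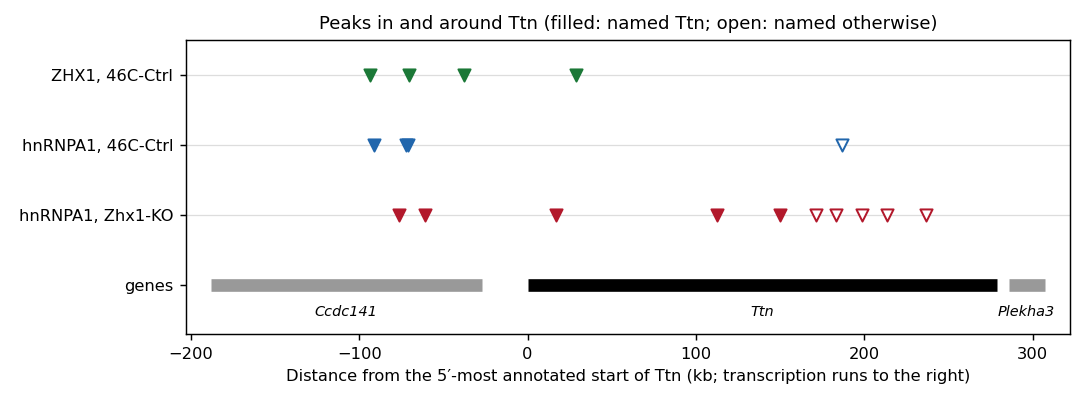
Peaks in and around Ttn by distance from its outermost start (kb), 1 row per list, with Ttn in black and its neighbours in grey; filled triangles are named Ttn and open ones Plekha3. The filled peaks of both control lists stand mostly over Ccdc141, and 8 Zhx1-KO peaks stand over Ttn.

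Myom2 (myomesin 2, chromosome 8, 15057653 to 15133541) had 7 ZHX1, 3 control hnRNPA1 and 6 Zhx1-KO peaks by name, of which only 1, 1 and 0 were in the gene. The rest were intergenic and downstream, as far as 485 kb from the nearest start of the gene. The ZHX1 peak at 15060205 to 15060432 was 0.128 kb from a start. Myom1 (myomesin 1, chromosome 17, 71002633 to 71126856) was the only gene with a promoter peak in both hnRNPA1 lists. The control peak at 71003149 to 71003371 and the Zhx1-KO peak at 71001806 to 71002029 lay 1120 bp apart around the start, and both were named Myl12a. Smyd1 (chromosome 6) had 1, 2 and 5 peaks in its GENCODE body of 108.3 kb, which also covers Krcc1. In its RefSeq span of 48.34 kb it had 0, 1 and 1. Inside the GENCODE body but outside the RefSeq span (71213940 to 71262281), 2 peaks named Gm1070 were 219 bp apart. They were the control hnRNPA1 one at 71304862 to 71305111 and the Zhx1-KO one at 71304420 to 71304643. The Zhx1-KO peak counted as a Smyd1 promoter peak (71321797 to 71322020, named Cd8b1) was also outside the RefSeq span.

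Counted over starts, 8 genes had a ZHX1 promoter peak (20%, 10.5 to 34.8%): Acta1, Actn3, Myh6, Myom2, Nebl, Tnnc2, Tnni2 and Tpm3. Control hnRNPA1 had 7 (17.5%, 8.75 to 31.9%): Actn2, Csrp3, Myl3, Myom1, Nebl, Tnnt2 and Tpm3. Zhx1-KO had 9 (22.5%, 12.3 to 37.5%): Acta1, Myl4, Myom1, Smyd1, Tnni3, Tnnt1, Tnnt3, Tpm1 and Ttn. Among all coding genes 12.1%, 6.77% and 21% had one. The control hnRNPA1 interval lay above its background and the other intervals held theirs. Nebl and Tpm3 were in both control lists, Acta1 in ZHX1 and Zhx1-KO, Myom1 in both hnRNPA1 lists, and none in all 3. The same shares over all coding genes are not given here, so these overlaps cannot be called few or many. Many of these starts are internal. With the outermost start of each gene only, ZHX1 had Acta1, Actn3, Nebl, Tnnc2 and Tnni2 (5, 12.5%, against 7.14% of all coding genes). Control hnRNPA1 then had Csrp3, Myl3, Myom1 and Tpm3 (4, 10%, against 3.3%), and Zhx1-KO had Acta1, Myom1 and Smyd1 (3, 7.5%, against 12.5%). No gene kept a promoter peak in both control lists under that rule. Within 1 kb of any start, control hnRNPA1 had 2 genes, Csrp3 and Myom1 (5%, against 4.23% of all coding genes), near its background. ZHX1 had 5 there (12.5%, against 8.51%) and Zhx1-KO had 9 (22.5%, against 15.2%). Within 5 kb, control hnRNPA1 had 15 genes (37.5%, against 13.1% of all coding genes). ZHX1 then had 12 (30%, against 20.3%) and Zhx1-KO had 15 (37.5%, against 34.1%). With all lists at the 14662 widest peaks and the 2 kb window, ZHX1 had 3 (7.5%, against 8.27%) and Zhx1-KO had 2 (5%, against 7.28%), and control hnRNPA1 had the same 7 as before.

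The same positions were rarely hit by different lists. A ZHX1 peak covered part of 3 of the 29 control hnRNPA1 peaks (10.3%, 3.58 to 26.4%), where the share over that whole list was 4.12%. Seen from the ZHX1 list, the 3 made up 9.38% of 32 (3.24 to 24.2%), against 2.6%. Overlap between the hnRNPA1 lists was limited to 1 position, which is 3.45% of the control peaks (4.41% over the list) and 1.41% of the 71 Zhx1-KO peaks (1.26% over the list). Of the ZHX1 peaks 1 overlapped a Zhx1-KO peak (3.12%, against 4.42%), and from the Zhx1-KO side this was 1.41% against 1.99%. All of the overlaps with Zhx1-KO were the Nebl repeat position. Below 2 copies only the Ttn position in Ccdc141 was left. By name Acta1, Myom2, Nebl, Tnnt2, Ttn and Xirp2 were thus common to all 3 lists, while by position only the Nebl repeat was.

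The sarcomere-named peaks were mostly single-copy. Multi-copy peaks were 7 of 32 for ZHX1 (21.9%), 3 of 29 for control hnRNPA1 (10.3%) and 8 of 71 for Zhx1-KO (11.3%, 5.82 to 20.7%). Over each whole list the shares were 25.3%, 24.5% and 31.4%. TAGGG, which as UAGGG is bound by hnRNPA1 in RNA and was searched on both strands, was present in 34.4% of the sarcomere-named ZHX1 peaks, 20.7% of control hnRNPA1 (9.85 to 38.4%) and 33.8% of Zhx1-KO, with 34.2%, 34.9% and 35.2% over all coding names. CCAAT, the NF-Y site, was in 37.5%, 31% and 32.4%, with 35.9%, 36% and 37.6% over all coding names. The E-box was in 65.6%, 69% and 81.7%, with 79.1%, 78.7% and 80.8% over all coding names. Repeated runs of G were in 3.12%, 6.9% and 4.23%, with 4.8%, 4% and 5.72%.

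Thin filament, thick filament and Z-disc genes were then compared per Mb of gene body, since the classes differ in total length. ZHX1 had 14.1 named peaks per Mb at thin filament genes (5.19 to 30.8), 9.99 at thick filament genes (1.21 to 36.1) and 15 at Z-disc genes (7.97 to 25.6). Control hnRNPA1 had 16.5 (6.63 to 34), 20 (5.45 to 51.2) and 12.7 (6.32 to 22.7). In both lists the intervals of the 3 classes overlapped widely, and each held the level of all coding genes, 17 for ZHX1 and 10.8 for control hnRNPA1. Zhx1-KO had 28.3 (14.6 to 49.4), 60 (31 to 105) and 40.3 (28.1 to 56) in the same order, around 37.7 for all coding genes. The M-line, titin and assembly genes had 18.7, 11.9 and 20.4 in the order of the lists, and the Zhx1-KO value (10.6 to 35.7) lay below 37.7.

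The high Zhx1-KO value of the thick filament came down to 30 per Mb (11 to 65.3) when peaks in the gene bodies were counted, since 6 of the 12 named peaks lay outside, at Myh3, Mybpc3, Myl1 and Myl2. Thin filament genes then had 33 (18.0 to 55.3) and Z-disc genes 27.6 (17.7 to 41.1), with 21.3 over all coding genes. The M-line, titin and assembly genes had 22.1. The order of the classes therefore changed with the way of counting. Of the Z-disc peaks in Zhx1-KO, Nebl supplied 22 of 35. Without the longest gene of each class (Neb, Myl4 and Nebl) the Zhx1-KO values were 60.2, 58.1 and 27.

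**Figure D5:**
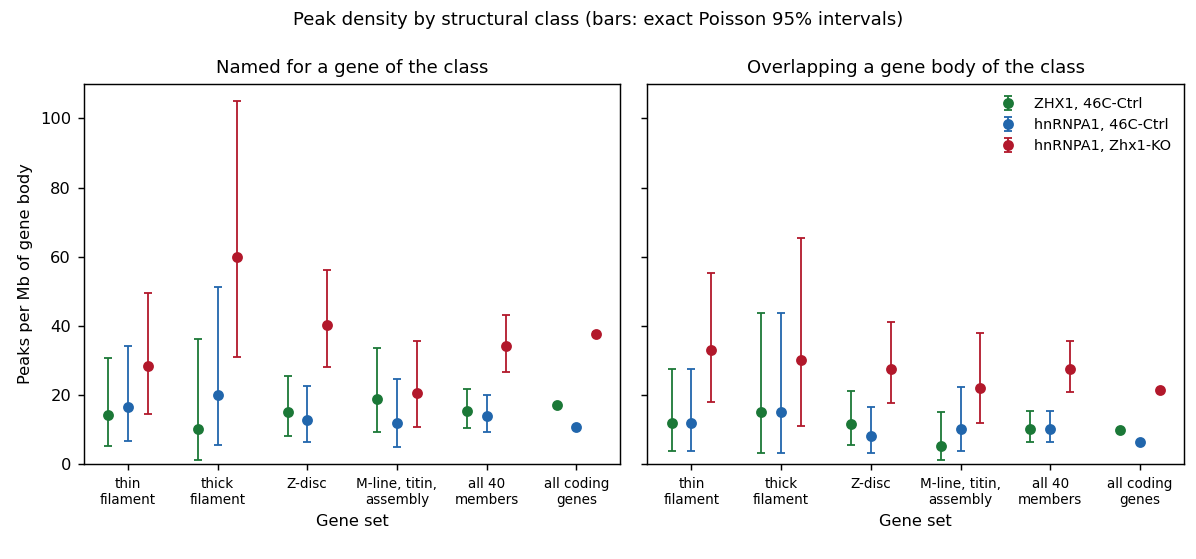
Peaks per Mb of gene body for each structural class, all 40 genes and all coding genes, by deposited name (left) and by overlap with the gene body (right); points are 1 library each and bars exact Poisson 95% intervals. The intervals of the classes overlap within each list, and the Zhx1-KO points are the highest in every class.

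Divided by muscle type, the 14 genes of cardiac or fetal heart isoforms had 11, 11 and 36 named peaks, or 16.2, 16.2 and 53.2 per Mb, of which Nebl supplied 22 of the 36. The 9 mainly skeletal isoforms had 4, 3 and 9, or 11.7, 8.8 and 26.4 per Mb. By gene body the Zhx1-KO values were close, at 32.5 for cardiac (20.4 to 49.2) and 32.3 for skeletal isoforms (16.1 to 57.7). The ratio of Zhx1-KO to control hnRNPA1 named peaks was 1.71 for the thin filament (0.622 to 5.14), 3.0 for the thick filament (0.909 to 12.8) and 3.18 for the Z-disc (1.58 to 6.95), and every one of these intervals held the 3.52 of the whole lists.

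Another list of 48 sarcomere genes held further myosins, leiomodins, capping proteins, Z-disc and M-line partners and assembly factors. Its shares by name were much the same, while its control hnRNPA1 shares by gene body and promoter were lower. ZHX1 peaks were named for 20 (41.7%), control hnRNPA1 peaks for 21 (43.8%) and Zhx1-KO peaks for 29 (60.4%). Both control lists named 11 (22.9%, against 20% of all coding genes), and 2 of these, Actn4 (a non-muscle α-actinin) and Synpo2 (myopodin), had no Zhx1-KO name. A peak in the gene body was present in 13 (27.1%), 14 (29.2%) and 22 (45.8%), with 28.1%, 20.5% and 42.3% over all coding genes. Among the 40 genes these shares were 37.5%, 37.5% and 50%. Promoter peaks were fewer for control hnRNPA1, with 1 of 48 (2.08%, Mylpf), and stood at 6 for ZHX1 (12.5%, against 12.1%) and 7 for Zhx1-KO (14.6%, against 21%). None had a promoter peak in both control lists, and that share over all coding genes is not given here. The 2.08% of control hnRNPA1 stands beside 17.5% among the 40 genes and 6.77% over all coding genes.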

How the data were processed

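ChIP-seq was done on cardiac progenitors from 46C mouse embryonic stem cells, with 1 library for each of the 3 groups. The authors trimmed reads with cutadapt 1.18, aligned them to GRCm38 with Bowtie2 2.3.5.1 and removed reads that were unmapped, duplicate or without a unique position. The deposited lists hold positions and gene names only, in no other unit, so no read depth, peak height or score was known. BWA 0.7.12-r1039 and deepTools 3.3.0 appear without a role in the submitters' processing notes. For the peak caller, its threshold, the use of inputs and the naming rule, the entry is: not given in the sources used here.

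Peaks were counted by deposited name, by overlap of at least 1 bp with GENCODE M21 gene bodies and within 2 kb of any annotated start site, and were compared with all 21924 protein-coding genes. Copy number was the median count in GRCm38 of a peak's 32-base words. Words were counted with numba 0.67.0, tables handled with pandas 2.3.3 and numpy 2.4.6, intervals computed with scipy 1.17.1 and plots drawn with matplotlib 3.10.9, all under Python 3.11.15, and the counting was tested on simulated data. With 1 library per group no test was made. Every one of the 40 genes was accounted for, and those described singly are members of the list, which was chosen, like the other lists, with earlier results of these data known. Alternatives covered peak width, list length, assignment to genes, promoter width, copy number and long genes. The place of 1 peak is not reported here.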

Additional observations from a re-analysis of the deposited data

How the results depend on the processing

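No paired analysis was possible because each group had 1 library. Of 63 alternative counts 38 stayed within 1.5 times the main count and 25 did not, and of 36 alternative densities (peaks per Mb by class) 23 stayed inside the 95% counting interval of the main value and 13 did not. The cause was not tested. With peaks of at least 300 bp, the sarcomere genes had 11, 7 and 26 named peaks (ZHX1, control hnRNPA1, Zhx1-KO), at 10 genes for ZHX1 and 7 for control hnRNPA1. Peaks per Mb then were 7.07, 7.07 and 11.8 for the thin filament, 0, 0 and 9.99 for the thick filament, and 6.91, 3.45 and 16.1 for the Z-disc. With all lists at the 14662 widest peaks, ZHX1 had 17 peaks and 3 promoter genes, and Zhx1-KO had 17 peaks, 12 genes and 2 promoter genes. Control hnRNPA1 kept its 29 peaks at 16 genes, so Zhx1-KO then had fewer peaks than control hnRNPA1. For the genes named at this length or at 300 bp and more, the shares over all coding genes are not given here. By gene body, ZHX1 had 21 peaks, Zhx1-KO had 30.0 per Mb for the thick filament and 27.6 for the Z-disc, and control hnRNPA1 had 8.06 for the Z-disc. By RefSeq gene spans, an alternative chosen after seeing the data like the one without chromosome 11, ZHX1 had 20 peaks and control hnRNPA1 19. Promoter genes were 5 for ZHX1 and 2 for control hnRNPA1 within 1 kb. Within 5 kb they were 15 for control hnRNPA1 (37.5%, against 13.1% of all coding genes) and 15 for Zhx1-KO (37.5%, against 34.1%). With the outermost start only they were 5, 4 and 3. Below 2 copies, control hnRNPA1 peaks overlapped ZHX1 at 1 place and Zhx1-KO at 0, and ZHX1 peaks overlapped Zhx1-KO at 0. Within 1 kb, control hnRNPA1 and ZHX1 each had 2 peaks near a Zhx1-KO peak. Without the longest gene of the class, the thin filament had 32.8, 38.3 and 60.2 peaks per Mb and the Z-disc 27.0 in Zhx1-KO.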
